A study of Mus musculus with 35 samples.

Results

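ESC-derived 3D EpiSCs were compared with the epiblast of E6.5 embryos by bulk RNA-seq, in 3 libraries of each out of the 27 bulk RNA libraries of the series. The comparison took in 10572 of 20707 candidate genes, which were autosomal and protein-coding, had no symbol starting with Hist or mt-, and had more than 2 TPM (transcript abundance scaled to a total of 1000000 per library) in at least 3 of the 6 libraries. The epiblast is the epithelium from which the embryo proper arises. At about E6.5 its posterior cells receive Nodal, BMP and Wnt signals, switch on Brachyury (T) and Eomes, and delaminate through the primitive streak as mesoderm and endoderm. EpiSCs are pluripotent stem cells that hold post-implantation epiblast identity in culture, classically with FGF2 and Activin-A, and this comparison asks how far cells made from ESCs in a 3D matrix match the tissue they model.

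The wild-type ESC-derived 3D EpiSCs were grown inside Matrigel with FGF2, Activin-A, XAV939 (a tankyrase inhibitor that blocks canonical Wnt signalling) and Noggin (a BMP antagonist), and the labels do not say which ESC line gave rise to them. The E6.5 epiblasts were labelled as wild-type CD-1 with male and female embryos not told apart, and the study's methods name matings of CD1 or of a Pdgfra reporter strain. According to the study's methods they were dissected by hand, visceral endoderm and extra-embryonic ectoderm were taken off, and several embryos were pooled for each library. The 2 groups also differed in library preparation: poly-A capture with 8 PCR cycles for the cultured cells, and total RNA with depletion of ribosomal cDNA and 13 PCR cycles for the embryos. Culture, cell source, strain and library kit changed together, so their parts in any difference cannot be told apart. The other cultured groups (2D EpiSCs, 3D EpiSCs taken from embryos, and EpiLCs, which are ESCs held for 2 days in FGF2 and Activin-A) shared the poly-A kit, and the E3.5, E4.5, E5.5 and E7.5 embryos shared the total RNA kit. Their levels are given beside single genes for that reason.

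Levels are TPM divided by a median-of-ratios factor per library (rescaled TPM). A gene was called higher or lower where limma gave a Benjamini-Hochberg adjusted p below 0.05 and the difference in mean log2(rescaled TPM + 1), named the log2 difference, was above 1 in size. This scale understates the change of genes with low levels. Between 61.1% and 63.5% of TPM in the E6.5 libraries fell on protein-coding genes, against 89.3% to 90.3% in the ESC-derived 3D libraries, and small noncoding RNAs took 20.1% to 25.1% against 0.862% to 1.25%. Between ESC-derived 3D replicates 1 and 2 the absolute log2 difference had a median of only 0.0563, and replicate 3 stood apart from both at 0.248. The 3 pairs of E6.5 libraries differed by 0.177 to 0.213. Nothing in the labels says that the replicates came from separate cultures, so the p-values measure only the spread between these libraries.

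Both groups carried epiblast identity, and the E6.5 libraries also carried visceral endoderm transcripts. Pou5f1 (Oct4), Sox2, Otx2 and Fgf5 were above 30 rescaled TPM in all 6 libraries. The visceral endoderm is the epithelium that wraps the epiblast and secretes apolipoproteins and other serum proteins. Of 26 listed markers, 25 were in the file, and their levels summed to 3651 to 4039 rescaled TPM in the E6.5 libraries and to 64.5 to 126 in the ESC-derived 3D libraries, where Apoe held most of the sum. All 25 markers were above 1 in every E6.5 library. Ttr was listed at 0 in all 3 ESC-derived 3D libraries, against 172, 174 and 200 at E6.5, and Apoa1 was at 0.108, 0 and 0.344 against 683, 623 and 711. Afp and Apoa4 were likewise between 0 and 0.0993 in the cultured cells and above 120 in the embryos. The sum was high at E5.5 too, at 2303 to 2382.

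Markers of extra-embryonic ectoderm and trophoblast summed to 168 to 181 rescaled TPM at E6.5 against 49.1 to 51.7, and the defining factor Elf5 was at 6.07, 5.33 and 5.84 against 0, 0 and 0.0282. Prl3d1, a hormone of trophoblast giant cells, was listed at 0 in all ESC-derived 3D libraries and stood at 39.5, 39.3 and 47.9 at E6.5. The parietal endoderm list summed to 1279 to 1357 against 344 to 351. Blood markers were low in both groups, at 13.9 to 17.2 and 6.36 to 8.21. In bulk RNA, fewer cells of a type and less RNA per cell cannot be told apart, and the part of these other cell types in the differences that follow was not tested.

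**Figure D1:**
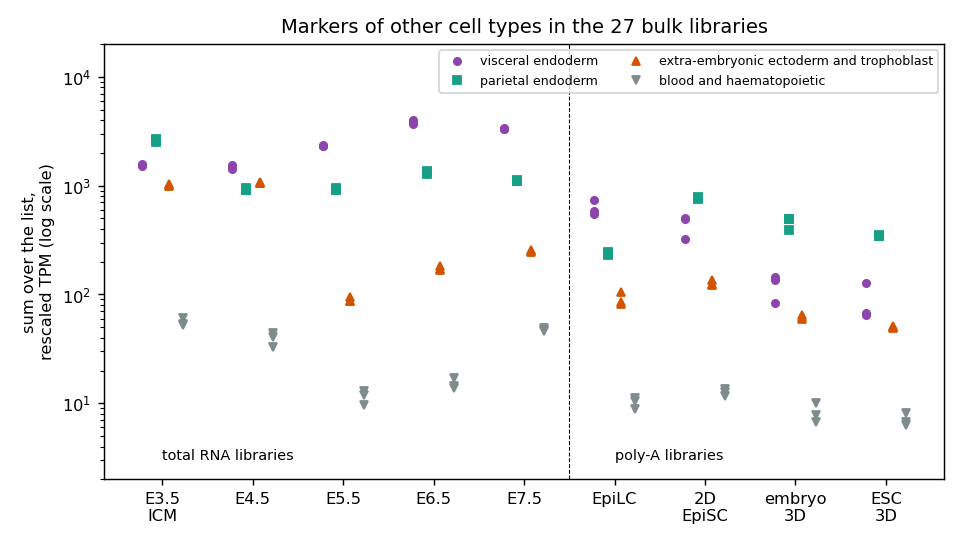
Summed rescaled TPM (log scale) of 4 marker lists of other cell types in each of the 27 bulk libraries, with 3 points per group. The purple visceral endoderm points lie between 3651 and 4039 in the E6.5 libraries and between 64.5 and 126 in the ESC-derived 3D libraries, and the dashed line parts the total RNA from the poly-A libraries.

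After rescaling, most tested genes lay within 1 log2 unit between the cultured cells and the embryo. The rescaling itself centres the median log2 difference, which was 0.01, against 0.50 without rescaling. The median absolute difference was 0.47, and 81.2% of the tested genes lay within 1 log2 unit. In the ESC-derived 3D EpiSCs 855 genes (8.09% of those tested) were called higher and 1121 (10.6%) lower, which together made 18.7%. Without regard to size, all 3 cultured libraries lay above all 3 embryo libraries for 31.2% of tested genes and below them for 32.1%. With no ESC-derived 3D library above 2 TPM, 282 genes passed the filter through the E6.5 libraries alone. With no E6.5 library above it, 372 passed through the ESC-derived 3D libraries alone. Such genes had to differ, so their values are a description and no p is given for them. Among the genes named in the text, those that passed through the ESC-derived 3D libraries alone include Atf3, Calcr, Chac1, Klf2, Mup6, Penk and Slc7a11. Through E6.5 alone passed Afp, Amn, Apoa1, Apoa4, Apoc2, Ctsh, Cubn, Dab2, Ddx4, Dnmt3l, Dppa4, Dppa5a, Elf5, Esrrb, Fgfr3, Fgfr4, Gata4, Lama1, Mesp1, Msx1, Nog, Prl3d1, Sfmbt2, Snai1, Soat2, Sp5, Tbx3, Tfap2c, Trf, Ttr and Zfp42. The 9918 others, said to have passed in both groups, had at least 1 library above 2 TPM in each. Of these 682 were called higher and 849 lower. They include Bmp2, Bmp4, Cfc1, Dkk1, Gata6, Lhx1 and Sox17, above 2 TPM in replicate 3 alone of the cultured libraries. Such genes also passed only because of their E6.5 level. Without ESC-derived 3D replicate 3 the calls numbered 771 and 1166, and with replicates 1 and 2 averaged into a single sample they numbered 867 and 1070.

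By median absolute log2 difference, the mean profile of the ESC-derived 3D EpiSCs was nearer to the E6.5 epiblast (0.467) than to E5.5 (0.496), E7.5 (0.544), E4.5 (0.652) or the E3.5 inner cell mass (0.762). By correlation of log2 mean levels E5.5 was nearer, at 0.882 against 0.876 for E6.5. Both measures used genes filtered on the ESC-derived 3D and E6.5 libraries. The neighbouring E5.5 and E6.5 values were not tested against each other. Groups made with the same kit were nearer still, with median absolute log2 differences of 0.205 for embryo-derived 3D EpiSCs, 0.300 for 2D EpiSCs and 0.307 for EpiLCs. A measure that moves with the kit was therefore counted: whether all 12 cultured libraries lay above, or all below, all 15 embryo libraries. This held upward for 6.12% and downward for 6.49% of tested genes, and for 315 (36.8%) of the genes called higher and 372 (33.2%) of those called lower. Genes of this kind are called parted by kit. The same line divides cultured from embryo libraries, so the name does not tell the kit from the culture or tissue. Among the genes named in the text, those parted upward were Calcr, Cbr3, Ccng1, Cdc42, Cdkn1a, Cyp51, Ddit4, Gapdh, H2-K1, Hmgcs1, Ifitm2, Impact, Itgb1, Lefty1, Lgr4, Msmo1, Mup6, Nodal, Pou5f1, Rps2, Tfrc and Txn1. Those parted downward were Amn, Apoe, Axin2, Col4a1, Col4a2, Ctsa, Ctsb, Ctsh, Ctsl, Cubn, Dab2, Dsg2, Fgfr4, Gata4, Lama1, Mki67, Msx1, Myh9, Nid1, Rbm25, Sall4, Slc9a3r1, Snai1, Soat2, Srrm2, Tbx3 and Tfap2c. For single genes, differences within a kit are also given. Over all tested genes, those within-kit fits called 0.946% higher and 4.88% lower in ESC-derived 3D than in 2D EpiSCs, 2.02% and 1.04% than in embryo-derived 3D EpiSCs, and 4.91% and 4.45% than in EpiLCs. For the E6.5 epiblast they called 0.927% higher and 0.303% lower than at E5.5, and 3.4% and 3.6% than at E7.5.

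**Figure D2:**
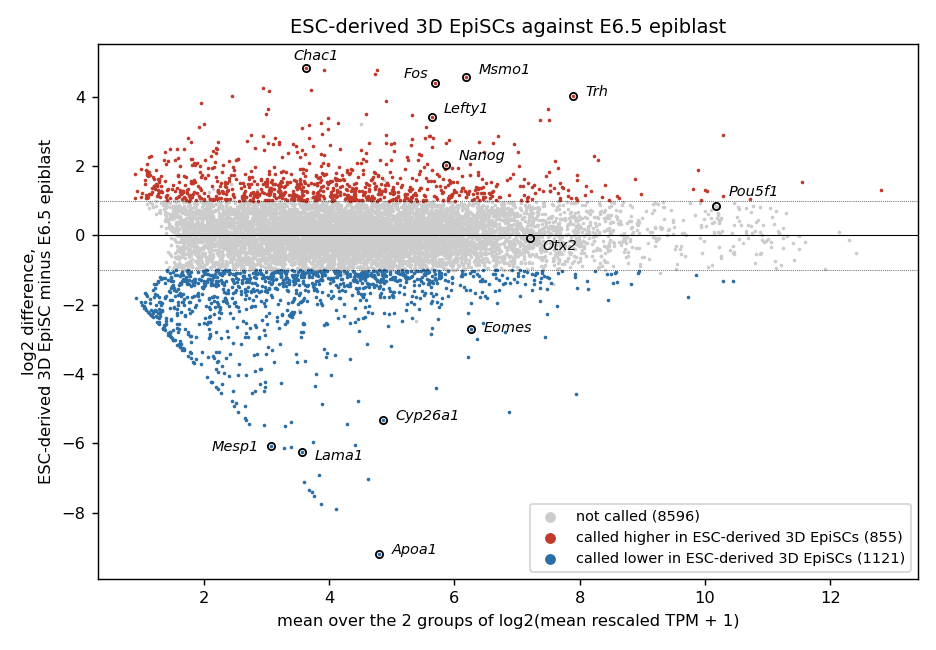
Log2 difference (ESC-derived 3D EpiSC minus E6.5 epiblast) of each tested gene against its mean level over both groups, in log2(rescaled TPM + 1). Red points are the 855 genes called higher, blue points the 1121 called lower, and dotted lines mark a log2 difference of 1, with Otx2 and Pou5f1 inside them and Chac1 and Apoa1 at the extremes.

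**Figure D3:**
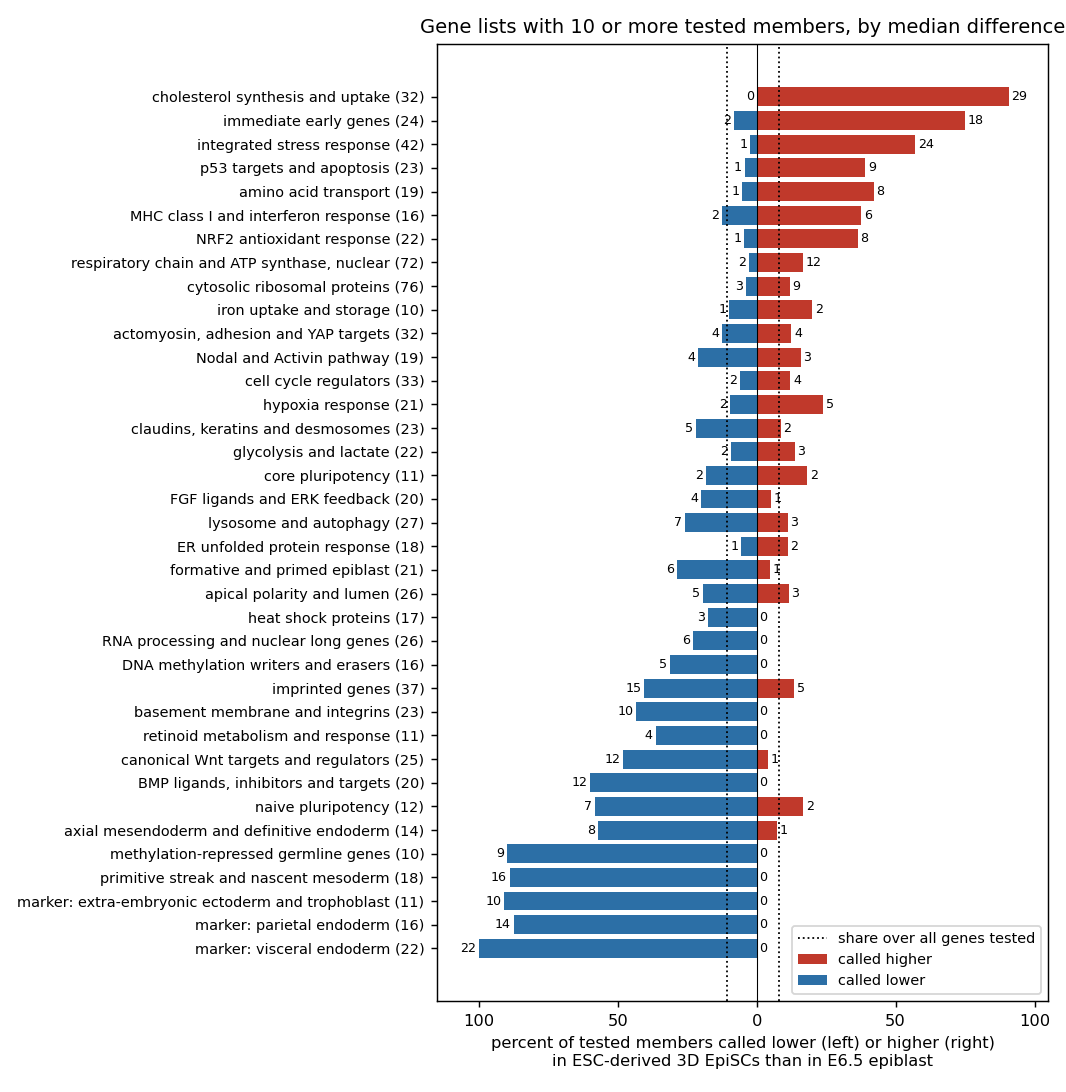
Percent of the tested members of each gene list called lower (blue) or higher (red) in ESC-derived 3D EpiSCs, with the number of members at the bar ends and the number tested in brackets, for lists with at least 10 tested members. Dotted lines mark the shares over all tested genes, 10.6% lower and 8.09% higher, and the bars include members that passed the filter through 1 group alone.

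Nanog was higher in the cultured cells, Sox2 and Otx2 overlapped with the embryo, and the enzymes of de novo DNA methylation were lower. Nanog, a core factor of the pluripotency network, was higher, at 130, 126 and 97.2 rescaled TPM in the ESC-derived 3D EpiSCs against 27.7, 24.7 and 31.2 at E6.5. The groups did not overlap, and the log2 difference was 2.04 ± 0.15 (SE, limma adjusted p = 3.42e-05). Tdgf1 (Cripto, the Nodal co-receptor) was higher by 1.34 ± 0.13 on the log2 scale. Pou5f1 was at 1644, 1654 and 1363 against 911, 800 and 886, which did not overlap, but its log2 difference of 0.84 stayed under the threshold. Sox2 overlapped between the groups, with 48.3, 48.1 and 30.4 against 39.1, 40.5 and 38.6 and a log2 difference of 0.07. Over the 12 listed core pluripotency genes, 11 were tested, 2 were higher and 2 (Sall4 and Dppa4) lower, with a median of -0.02. Dppa4 passed the filter through E6.5 alone, at 7.74 to 10.98 against 0.110 to 0.722.

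Several factors of the formative and primed epiblast overlapped between the groups. Otx2, which directs the exit from the naive state, was at 136, 134 and 162 in culture and 135, 153 and 164 in the embryo, and Pou3f1 (Oct6) was at 31.1 to 56.8 against 42.9 to 76.1. Both genes overlapped between the groups, with log2 differences of -0.07 and -0.26. Fgf5, the classical post-implantation marker, stood at 151 to 214 against 104.6 to 125, without overlap but at a log2 difference of 0.70. Of 21 tested members of this list, 1 was called higher (Nefl) and 6 lower, with a median of -0.26, and without rescaling of TPM only 2 were lower. The de novo methyltransferases were among the lower genes: Dnmt3b was at 800, 824 and 758 against 2159, 1946 and 1798 (log2 difference -1.31), and Dnmt3a at 51.8 to 70.001 against 163 to 191 (-1.58). Dnmt3l, their cofactor, was at 0 to 0.188 against 10.2 to 17.3. The calls of Dnmt3b without rescaling and of Dnmt3a after centring within exon-length bins were lost.

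Several naive pluripotency genes were lower in the cultured cells, most of them tested only because of their level at E6.5. Zfp42 (Rex1) was at 0.358 to 1.04 rescaled TPM against 7.92 to 10.3, Esrrb at 0.257 to 0.732 against 14.6 to 17.6, and Dppa5a at 0.469 to 0.827 against 17.0 to 22.7. Of the 12 members tested, 7 were called lower, 6 of them after passing the filter through E6.5 alone, and without any 1 E6.5 library 1 was lower. Among the 5 members that passed in both groups 1 was higher and 1 lower. Klf4 and Klf2 went the other way and are also immediate early genes. Klf4 was at 12.8, 11.8 and 16.02 against 5.99, 5.04 and 4.76 (log2 difference 1.21 ± 0.15), and Klf2 at 6.92 to 9.14 against 0 to 0.736. Tbx3, at or near 0 in culture and 18.9 to 22.6 at E6.5, is on the naive list and was parted by kit.

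Genes of the primitive streak and nascent mesoderm were lower in the ESC-derived 3D EpiSCs. Of 23 listed genes 18 were tested, and 16 were called lower and none higher by limma, 9 of them having passed the filter through E6.5 alone. Among the 9 members that passed in both groups 7 were lower, which was also the count without any 1 E6.5 library. Of these, Lhx1 was above 2 TPM in replicate 3 alone of the cultured libraries. T was present in the cultured cells, at 10.46, 12.05 and 17.9 rescaled TPM, and lower than at E6.5, at 37.2, 32.7 and 37.6 (log2 difference -1.38 ± 0.19, limma adjusted p = 0.000634). The groups did not overlap, and the call was lost without rescaling, at -0.87. Eomes, the T-box factor needed for the epithelial to mesenchymal transition and endoderm, was at 35.2, 34.7 and 19.14 against 208, 185 and 181 (-2.69 ± 0.23).

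Factors that act after T and Eomes were near the floor in culture. Mixl1 was at 2.69, 2.23 and 4.36 against 73.4, 62.8 and 57.0. Mesp1, the factor of nascent mesoderm, was at 0, 0.0483 and 0 against 87.9, 57.6 and 60.5, and Snai1, the repressor of E-cadherin in delaminating cells, at 0.427 to 1.03 against 26.4 to 47.6. Mesp1 and Snai1 were tested only because of their level at E6.5, whereas Mixl1 passed the filter in both groups and did not overlap. Within the embryo series, Mesp1 was at 1.16 at E5.5, and T and Mixl1 were higher at E6.5 than at E5.5 by 2.46 and 2.403 on the log2 scale. Cdh1 (E-cadherin) was at 295 to 318 in culture and 246 to 265 in the embryo, a log2 difference of 0.25 that was not called. Cdh2 (N-cadherin), which delaminating cells gain, was lower at 6.09, 6.29 and 14.0 against 20.9, 22.9 and 20.01, a call that was lost without rescaling and after exon-length centring. Wnt3, the ligand that initiates the streak, was on the list and not called, at a log2 difference of -0.43.

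**Figure D4:**
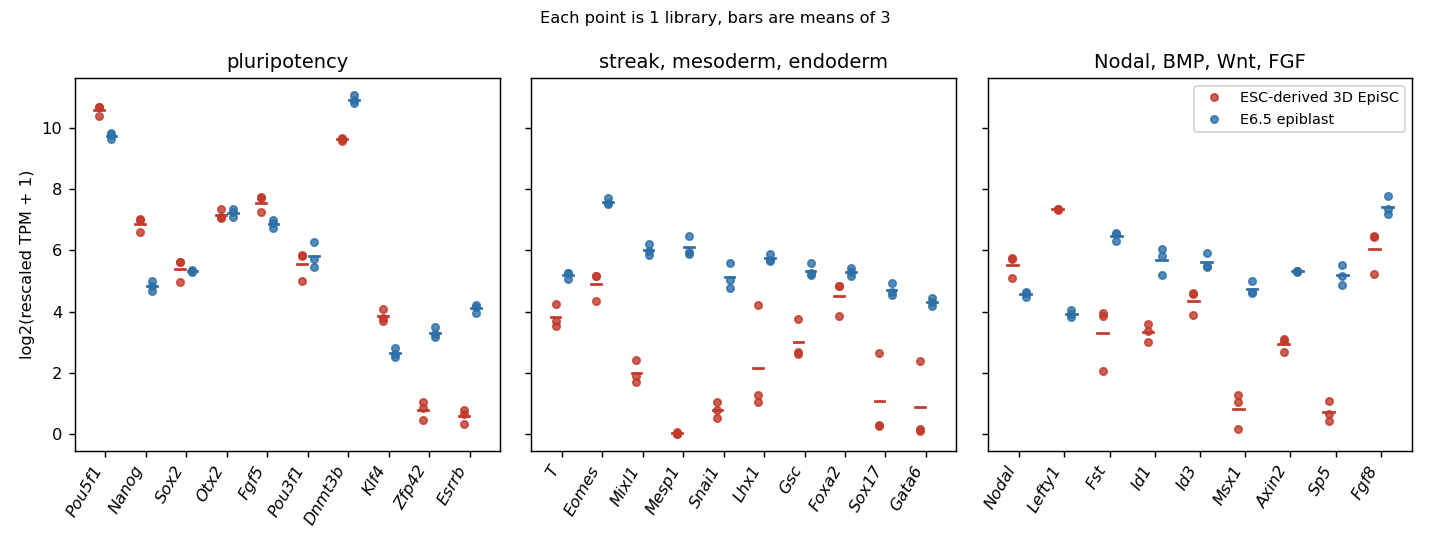
Log2(rescaled TPM + 1) of genes of pluripotency, of streak, mesoderm and endoderm, and of the Nodal, BMP, Wnt and FGF pathways, with a point for each of the 3 ESC-derived 3D EpiSC libraries (red) and 3 E6.5 libraries (blue) and a bar at the mean of the log2 values. Otx2 and Sox2 overlap between the groups, Nanog and Lefty1 lie higher in red, and Mesp1, Snai1, Msx1 and Sp5 lie near 0 in red only.

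Endoderm and axial mesendoderm genes were lower as well, with a spread between the cultured replicates. Foxa2, which marks the anterior streak and definitive endoderm, was at 27.8, 27.8 and 13.4 against 42.2, 38.3 and 34.7, a log2 difference of -0.78 that was not called. Sox17 was at 0.223, 0.200 and 5.23 against 29.4, 22.2 and 24.0 (log2 difference -3.64 ± 0.58), and Gata6 at 0.0535, 0.101 and 4.21 against 18.8, 17.1 and 20.6. Replicate 3 was thus the highest of the cultured libraries for both genes and still below every E6.5 library. The same replicate stood out for Lhx1 (1.40, 1.04 and 17.6), Dkk1 (0.139, 0.104 and 10.4), Cyp26a1 (0.919, 0.980 and 12.2) and Cfc1 (0, 0 and 3.54). For Cer1, a secreted Nodal and BMP antagonist named after its values were seen, replicate 3 reached 92.5 against 2.07 and 2.02 and passed the E6.5 libraries at 46.9 to 56.9, so that no call was made. Dkk1 lost its call under 8 of 15 alternatives, the averaging of replicates 1 and 2 among them. Leaving out replicate 3 changed the log2 difference of Sox17 to -4.36 and of Lhx1 from -3.58 to -4.55. Of the 14 tested members, 8 were lower and 1 (Trh) higher, with 3 to 4 lower without any 1 E6.5 library, and several of these genes (Sox17, Gata6, Gata4, Cer1, Dkk1) are also known in the visceral endoderm, whose summed markers differed as given above. Over the neural and surface ectoderm list, 7 of 16 genes were tested and 3 were lower, among them Krt8. Sox1 had too little signal in these libraries to be tested, as did all 26 listed Hox genes.

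In the Nodal pathway, the feedback inhibitor Lefty1 was higher in the cultured cells. Nodal signals through Activin receptors, with Tdgf1 as co-receptor, and induces its own antagonists Lefty1 and Lefty2. Lefty1 was at 163, 160 and 162 rescaled TPM against 13.3, 14.0 and 15.4 (log2 difference 3.42 ± 0.11, limma adjusted p = 4.91e-07). It was parted by kit, and stood at 163 in 2D EpiSCs. Nodal itself was at 52.5, 52.0 and 33.1 against 23.4, 21.2 and 23.7, a log2 difference of 0.95 under the threshold. The receptor Acvr2b and the Activin-binding Fst were lower, Fst at 13.3, 14.5 and 3.16 against 91.8, 77.5 and 94.8, and Cfc1 (Cryptic) was lower in all 3 libraries. All 19 tested members passed in both groups, though Cfc1 was above 2 TPM in replicate 3 alone of the cultured libraries. Of the 19, 3 were higher and 4 lower with a median of 0.20, and without rescaling 6 were higher.

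BMP ligands, inhibitors and targets were lower. Of 20 tested members 12 were called lower and none higher, 6 of them after passing through E6.5 alone (6 without any 1 E6.5 library), with a median log2 difference of -1.39. Id1, a direct BMP target, was at 9.23, 6.98 and 11.1 rescaled TPM against 65.5, 36.0 and 55.2 (log2 difference -2.38 ± 0.24, limma adjusted p = 0.000146). It was also lower than in 2D EpiSCs, which stood at 51.8, by 2.33 on the log2 scale (limma adjusted p = 5.1e-07). These comparisons share the ESC-derived 3D libraries. Id3 was at 22.6, 23.2 and 13.9 against 59.1, 42.8 and 43.8, and lost its call without rescaling. Msx1 was at 0.115 to 1.41 against 23.3 to 30.9. The ligands Bmp2 and Bmp4 were lower at 1.14 to 7.52 against 13.5 to 17.6 and at 0.487 to 2.34 against 3.26 to 5.63. Both ligands were above 2 TPM in replicate 3 alone of the cultured libraries, so they too passed only because of their E6.5 level. Nog, which encodes the antagonist Noggin, was at 0 to 0.356 against 4.42 to 6.78. Id2, named for comparison after its values were seen, was not called, at a log2 difference of 0.42.

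Wnt target genes were lower, and several regulators were not called. Axin2, the feedback inhibitor used as a readout of canonical Wnt signalling, was at 7.62, 7.24 and 5.45 rescaled TPM against 39.0, 39.1 and 38.3 (log2 difference -2.37 ± 0.14, limma adjusted p = 9.45e-06). The groups did not overlap, and Axin2 was parted by kit. Sp5, another direct target, was at 0.322 to 1.10 against 28.5 to 44.6. Lef1, a transcription factor of the pathway, was at 26.0, 25.4 and 21.3 against 57.1, 64.7 and 51.1, although it was higher than in 2D EpiSCs (10.3) by 1.15 on the log2 scale (limma adjusted p = 3.6e-08). Sfrp5, a secreted Wnt antagonist also known in anterior visceral endoderm, was at 0.163 to 3.17 against 23.9 to 25.1. Over 25 tested members 12 were lower and 1 (Lgr4) higher, with a median of -0.93, and without rescaling 6 were lower.

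FGF and ERK genes differed member by member. Dusp6, the phosphatase induced by ERK, was at 128, 130 and 175 rescaled TPM against 71.6, 62.2 and 75.2 (log2 difference 1.03 ± 0.16), but lost its call under 4 alternatives. Fgf8, made in the streak, was lower at 85.4, 88.7 and 36.9 against 218, 162 and 145. The receptors Fgfr4 and Fgfr3 were below 1 in culture and between 3.67 and 7.27 at E6.5. Over 20 tested members 4 (20%) were lower and 1 (5%) higher, against 10.6% and 8.09% of all tested genes. In retinoid metabolism 4 of 11 tested genes were lower and none higher. The largest were Rbp4, a carrier made by visceral endoderm, at 1.10 to 4.04 against 117 to 129, and Cyp26a1, which degrades retinoic acid, at 160, 135 and 147 in the embryo.

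Genes of the basement membrane were lower in the ESC-derived 3D EpiSCs. Lama1, a laminin alpha chain, was at 0.296, 0.351 and 0.474 rescaled TPM against 95.5, 109 and 102, and was tested only because of its level at E6.5. Col4a1, which passed in both groups, was at 9.18, 8.51 and 13.6 against 256, 219 and 233 (log2 difference -4.40 ± 0.18, limma adjusted p = 1.49e-06), and Col4a2 at 2.72 to 3.95 against 107 to 130. Nid1, which links laminin to collagen IV, was at 0.675 to 2.22 against 36.1 to 41.5, and the groups were far apart for each. All 4 were parted by kit. Col4a1, Col4a2 and Nid1 were also lower than in 2D EpiSCs, with log2 differences of -1.64, -1.45 and -1.69 (limma adjusted p between 4.9e-08 and 7.8e-06), and Lama1 stood at 2.76 there. In EpiLCs Col4a1 stood at 8.92, Col4a2 at 1.75 and Lama1 at 2.11. Embryo-derived 3D EpiSCs stood at 12.1, 3.70 and 0.495 for the same genes. Fn1 was at 14.5 to 22.9 against 113 to 140. Among 23 tested members 10 were lower and none higher, and among the 21 that passed in both groups 9 were lower, while Itgb1, the main integrin beta chain, was not called, at 153 to 155 against 81.5 to 113. Without rescaling 6 members were lower. Lama1, Col4a1 and Col4a2 also belong to the parietal endoderm list, on which 14 of 16 tested genes were lower, 7 of them through the E6.5 libraries alone.

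Most polarity genes were not called. Podxl, the sialomucin of the apical membrane and lumen, was at 28.4, 28.8 and 52.3 rescaled TPM against 194, 200 and 226 (log2 difference -2.53 ± 0.23, limma adjusted p = 9.08e-05), and at 126 in 2D EpiSCs. Its scaffold partner Slc9a3r1 was at 158 to 186 against 422 to 447. Cdc42 was higher, at 282, 284 and 286 against 108, 119 and 126, and was parted by kit. Of 26 tested polarity members 3 (11.5%) were higher and 5 (19.2%) lower, against 8.09% and 10.6% of all tested genes. Without rescaling the balance turned to 7 and 1. Claudins, keratins and desmosome genes likewise went from 2 higher (8.70%) and 5 lower (21.7%) to 5 and 1. Desmoplakin (Dsp) was at 8.22, 8.28 and 15.4 against 33.7, 39.4 and 33.9.

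Among actomyosin, adhesion and YAP target genes 4 of 32 were higher and 4 lower (12.5% each), or 12 and 1 without rescaling. The shares over all tested genes were 8.09% and 10.6%. The YAP targets Ctgf and Cyr61, which are also induced by serum, were higher, with 30.5, 30.2 and 33.6 against 6.17, 7.70 and 6.55 for Ctgf. Amotl2 and Lats2, which are YAP targets as well, were lower, with 1.55 to 2.49 against 5.99 to 6.46 for Lats2. Both lost their call without rescaling. Myh9, the heavy chain of non-muscle myosin II, was at 54.5, 54.2 and 79.6 against 453, 506 and 468 (log2 difference -2.92 ± 0.17), and was parted by kit.

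Targets of the integrated stress response were higher in the ESC-derived 3D EpiSCs. In this pathway kinases that sense amino acid lack, haem, viruses or unfolded protein favour translation of Atf4, which induces amino acid synthesis and transport. Of 46 listed genes 42 were tested, and 24 were called higher and 1 (Soat2) lower, with a median log2 difference of 1.38. Among the 37 that passed in both groups 20 were higher, and 3 of the 24 were parted by kit. Without rescaling 34 were higher. Chac1, which degrades glutathione, was at 60.2, 60.7 and 72.4 rescaled TPM against 1.42, 1.93 and 0.735 (log2 difference 4.82), and it was tested only because of its level in the cultured cells. Trib3, a feedback inhibitor of Atf4 that passed in both groups, was at 47.8, 43.9 and 59.6 against 3.23, 4.63 and 3.83 (log2 difference 3.39 ± 0.16, limma adjusted p = 3.36e-06), without overlap.

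Known Atf4 targets often hold a composite site for C/EBP and ATF factors near the start. RefSeq promoters (GRCm38.p6, 250 bases before to 50 after each start) were searched on both strands for TGATGNAAN, and are shown with this match in capitals, whichever strand it lies on, for 4 members with a match. They lay at chr2:119350992-119351291 on the plus strand, chr2:152344011-152344310 on the minus strand, chr6:7693160-7693459 on the minus strand and chr3:50443564-50443863 on the minus strand.
Chac1: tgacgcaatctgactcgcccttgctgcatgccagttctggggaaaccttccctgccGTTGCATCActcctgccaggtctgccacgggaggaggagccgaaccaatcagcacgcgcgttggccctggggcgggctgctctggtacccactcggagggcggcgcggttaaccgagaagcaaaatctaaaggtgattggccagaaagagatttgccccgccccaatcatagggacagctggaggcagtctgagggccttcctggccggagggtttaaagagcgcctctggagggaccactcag
Trib3: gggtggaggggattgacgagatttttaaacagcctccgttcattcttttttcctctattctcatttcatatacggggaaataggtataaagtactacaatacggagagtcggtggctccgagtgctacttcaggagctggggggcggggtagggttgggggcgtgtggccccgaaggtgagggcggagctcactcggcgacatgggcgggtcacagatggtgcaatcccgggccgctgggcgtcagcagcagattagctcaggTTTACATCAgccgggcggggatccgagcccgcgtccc
Asns: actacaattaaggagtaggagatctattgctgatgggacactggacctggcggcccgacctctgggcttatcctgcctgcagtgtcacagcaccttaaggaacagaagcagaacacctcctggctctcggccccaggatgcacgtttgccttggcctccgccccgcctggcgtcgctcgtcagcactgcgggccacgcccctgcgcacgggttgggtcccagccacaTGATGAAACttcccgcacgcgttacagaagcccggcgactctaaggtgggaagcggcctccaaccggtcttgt
Slc7a11: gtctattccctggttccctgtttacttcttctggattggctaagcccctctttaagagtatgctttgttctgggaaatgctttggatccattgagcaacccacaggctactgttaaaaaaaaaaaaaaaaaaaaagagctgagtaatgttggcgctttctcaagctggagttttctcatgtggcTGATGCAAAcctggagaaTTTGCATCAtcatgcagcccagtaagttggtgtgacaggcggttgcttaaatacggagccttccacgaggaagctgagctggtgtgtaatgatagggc
The Chac1 match lay 194 bases before the start, that of Asns 23 before and that of Trib3 13 after, and Slc7a11 held 2 matches. Of the 24 higher members 20 had a promoter in the table, and 7 (35%) held the letters (Asns, Atf3, Chac1, Pck2, Slc7a11, Trib3, Vldlr), against 4.496% of all 27025 genes. A match describes the letters and does not show binding.

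Atf4 itself, Asns and Slc7a11 were named for the pathway and these sequences after their values were seen. Atf4 was at 451, 455 and 441 against 183, 155 and 161 (log2 difference 1.43 ± 0.11), and Asns (asparagine synthetase) at 212, 210 and 442 against 32.9, 37.9 and 37.6. Slc7a11, the cystine transporter, was at 2.65 to 3.39 against 0.140 to 0.591, and passed the filter through the cultured libraries alone. Psat1, of serine synthesis, was at 442, 441 and 681 against 42.8, 48.0 and 61.4 (3.32 ± 0.21). Compared with 2D EpiSCs, made with the same kit, Trib3 was higher by 2.66 and Psat1 by 1.54 on the log2 scale (limma adjusted p = 4.5e-06 and 1.5e-05), and Chac1 stood at 2.80 in 2D EpiSCs, in a comparison that shares the ESC-derived 3D libraries. Embryo-derived 3D EpiSCs stood at 84.4 for Chac1 and 108 for Trib3. Ddit4, a target of several stress pathways, was at 66.1, 64.9 and 248 against 4.98 to 7.48.

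Amino acid transporters followed, with 8 of 19 tested members higher and 1 lower, or 5 higher without replicate 3. Slc7a5, the large neutral amino acid transporter, was at 224, 220 and 352 against 69.8, 61.7 and 58.8, and Slc7a1, for arginine and lysine, at 24.4, 25.3 and 48.4 against 4.83 to 6.20. The branch of the unfolded protein response in the endoplasmic reticulum gave 2 higher (11.1%) and 1 lower (5.56%) of 18 tested. Over all tested genes the shares were 8.09% and 10.6%. Herpud1 was at 47.3, 47.4 and 36.1 against 17.2, 13.1 and 13.2. Targets of the antioxidant factor NRF2 gave 8 higher of 22, or 4 without replicate 1 or without replicate 2. Srxn1 was at 26.8, 28.7 and 12.5 against 1.32 to 3.31, and Txn1 at 435, 445 and 336 against 66.6, 102 and 108. Mt1, a metallothionein, was the lower member, at 67.3 to 98.0 against 288 to 374.

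Immediate early genes were higher in the cultured cells. These genes are transcribed within minutes of a growth factor signal, stress or handling of cells, without new protein synthesis. Of 24 tested 18 were higher and 2 (Ier5 and Fosl1) lower, with a median log2 difference of 1.45, and 14 of the 18 passed the filter in both groups. Fos was at 227, 231 and 248 rescaled TPM against 8.74, 10.0 and 12.3 (log2 difference 4.39 ± 0.14, limma adjusted p = 4.72e-07). Egr1 was at 150, 147 and 100 against 4.47, 4.48 and 3.85, and Fosb at 129, 137 and 150 against 3.00 to 5.95. No library of one group reached the range of the other. The level moved within each kit too: Fos was at 2.63 in EpiLCs, 38.5 in 2D EpiSCs and 217 in embryo-derived 3D EpiSCs, and at 519 at E4.5 against 3.91 at E5.5. Fos was higher in ESC-derived 3D EpiSCs than in 2D EpiSCs by 2.62 and Fosb by 3.01 on the log2 scale (limma adjusted p = 3.6e-06 and 7e-06). Dusp1, a phosphatase of MAP kinases, was at 73.5, 78.1 and 91.6 against 8.79 to 10.98.

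**Figure D5:**
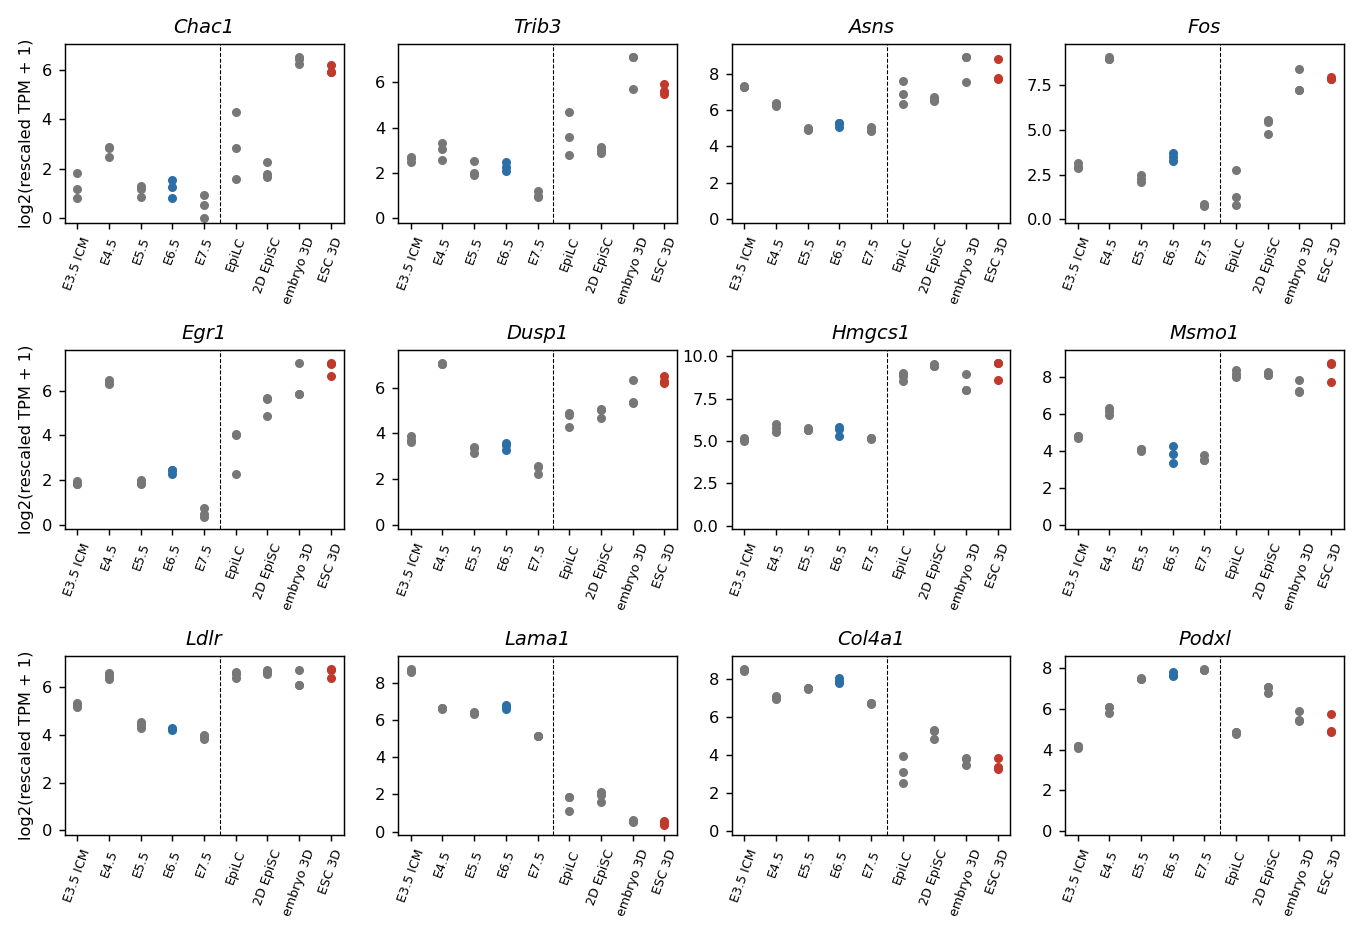
Log2(rescaled TPM + 1) of 12 genes in all 9 bulk groups, a point per library, with E6.5 in blue, ESC-derived 3D EpiSCs in red and a dashed line between embryo (left) and cultured (right) groups. Chac1 and Trib3 are highest in both 3D groups, Fos is also high at E4.5, Hmgcs1 and Msmo1 are high in all cultured groups, and Lama1 is low in all of them.

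Genes of cholesterol synthesis were higher in the cultured cells, and many of them were parted by kit. Cells that lack sterol release the factor SREBP2, which raises the mevalonate pathway and the LDL receptor. Of 32 tested members 29 were higher and none lower, with a median log2 difference of 2.18, and 19 of the 29 were parted by kit. Hmgcs1, the first committed enzyme of the pathway, was at 778, 776 and 394 rescaled TPM against 38.9, 52.2 and 56.0 (log2 difference 3.65 ± 0.28, limma adjusted p = 3.47e-05). Msmo1, which removes methyl groups from sterols, was at 434, 426 and 213 against 9.49, 13.6 and 18.5 (4.57 ± 0.32), and Cyp51 at 160, 160 and 84.4 against 9.53 to 11.8. Replicate 3 was the lowest cultured library for all 3 genes and still above every E6.5 library. The same genes were high in the other cultured groups: Hmgcs1 was at 720 in 2D EpiSCs, 452 in EpiLCs and 339 in embryo-derived 3D EpiSCs, and the log2 difference between ESC-derived 3D and 2D EpiSCs was -0.22 (limma adjusted p = 0.47).

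A search of the same RefSeq promoters for the sterol regulatory letters TCACNCCAC, on both strands, found them in 1 of 19 matched members (5.26%) against 1.44% of all genes. The match was in Hmgcs1, 137 bases before the start, and is in capitals in its window at chr13:119690101-119690400 on the plus strand.
Hmgcs1: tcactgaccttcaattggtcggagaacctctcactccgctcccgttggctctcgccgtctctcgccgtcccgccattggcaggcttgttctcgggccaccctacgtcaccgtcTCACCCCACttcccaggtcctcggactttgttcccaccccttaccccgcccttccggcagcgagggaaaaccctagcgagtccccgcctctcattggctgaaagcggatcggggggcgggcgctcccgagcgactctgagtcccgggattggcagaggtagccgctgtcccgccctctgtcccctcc
For immediate early genes, the CArG box that serum response factor binds was found in 2 of 16 matched members (Egr2 and Zfp36, 12.5%) against 1.81% of all genes.

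Some genes of the p53 response were higher, Pmaip1 was lower, and 13 tested members were not called. Cdkn1a (p21), which halts the cell cycle, was at 51.5, 51.5 and 29.9 rescaled TPM against 4.08, 2.44 and 4.79 (log2 difference 3.24 ± 0.26, limma adjusted p = 4.93e-05). Ccng1 was at 189, 192 and 97.2 against 18.7 to 24.5. Pmaip1 (Noxa), a trigger of apoptosis, was at 5.41, 5.57 and 1.37 against 48.0, 42.4 and 41.0. Of 23 tested 9 were higher and 1 lower, 6 of the 9 were parted by kit, and Cdkn1a was higher still in 2D EpiSCs, at 100. Cell cycle regulators gave 4 higher (12.1%) and 2 lower (6.06%) of 33, against 8.09% and 10.6% of all tested genes. Mki67 was at 56.1, 56.7 and 86.4 against 150, 175 and 161, a call lost without rescaling.

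Metabolic lists depended on the scaling. Nuclear genes of the respiratory chain gave 12 higher (16.7%) and 2 lower (2.78%) of 72 tested. Cytosolic ribosomal proteins gave 9 (11.8%) and 3 (3.95%) of 76. The shares over all tested genes were 8.09% higher and 10.6% lower. Without rescaling, 38 respiratory chain and 33 ribosomal protein genes were higher. The lists held parted-by-kit genes such as Rps2, at 3588, 3559 and 3050 rescaled TPM against 488, 427 and 458, and ribosomal protein genes have many processed copies that can share reads. Glycolysis gave 3 higher (13.6%) and 2 lower (9.09%) of 22, near the shares over all tested genes. Gapdh was at 5090, 5723 and 4520 against 1942, 1582 and 1758, while Slc2a3, a glucose transporter, was lower at 111, 129 and 211 against 415, 426 and 394. In the hypoxia response Adm (adrenomedullin) was lower at 0.791, 0.447 and 7.98 against 29.2, 26.0 and 33.3. Of 21 tested members of that list 5 were higher and 2 lower, or 2 and 4 without replicate 3. Among heat shock proteins 3 of 17 (17.6%) were lower (Hspa1a, Hspa1b and Hsph1) and none higher.

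Imprinted genes, which are expressed from 1 parental allele, were more often lower than higher. Igf2, the fetal growth factor, was at 1.79, 2.07 and 3.70 rescaled TPM against 57.6, 53.4 and 48.9 (log2 difference -3.98 ± 0.20, limma adjusted p = 4.59e-06). It was at 23.5 in 2D EpiSCs and is also made by extra-embryonic endoderm. Peg10 was at 15.8 to 24.9 against 114 to 136, and Sfmbt2 at 0.576 to 0.717 against 15.4 to 17.1. Impact and Nnat were higher, with 146, 138 and 106 against 15.9, 15.7 and 18.8 for Impact. Over 37 tested genes 15 were lower and 5 higher, or 10 and 9 without rescaling. Allele of origin was not analysed here.

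Beyond Dnmt3a, Dnmt3b and Dnmt3l, the list of DNA methylation genes held 2 lower members, Tet1 and Tet3. Tet1, which oxidises methylcytosine, was at 22.8, 21.7 and 30.1 rescaled TPM against 89.9, 118 and 81.2 (log2 difference -1.91 ± 0.18, limma adjusted p = 0.000113). With the Dnmt3 genes included, 5 of 16 tested members were lower and none higher, or 3 lower without rescaling or after exon-length centring. Germline genes that promoter methylation keeps silent in the body were low in the ESC-derived 3D EpiSCs. Ddx4 was at 0 to 0.0958 against 4.70 to 8.02, and Sycp3 at 0.555 to 1.85 against 10.7 to 16.6. This did not hold for all cultured groups, as Ddx4 stood at 9.27 in EpiLCs. Of 10 tested germline genes 9 were lower, 7 members having passed the filter through E6.5 alone. Genes of antigen presentation were higher in part. H2-K1, a class I heavy chain of a family with similar sequences, was at 64.0, 64.0 and 116 against 4.49 to 7.17, and B2m, its light chain, at 35.1, 30.2 and 42.0 against 7.41 to 11.3. In that list 6 of 16 were higher and 2 lower.

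Outside the lists, the largest higher genes by log2 difference were led by Cbr3, a carbonyl reductase, at 102, 105.4 and 37.0 rescaled TPM against 1.37 to 2.39 (4.78 ± 0.38). Calcr, the calcitonin receptor, was at 37.2, 36.1 and 25.2 against 0.627 to 0.876. Penk, a neuropeptide precursor, was at 49.5, 50.7 and 66.4 against 1.84 to 2.28, and was low in embryo-derived 3D EpiSCs, at 0.278. Trh, the thyrotropin-releasing hormone precursor and a member of the endoderm and axial list, was at 738, 744 and 1449 against 69.0, 49.7 and 52.7 (4.01 ± 0.27, limma adjusted p = 1.97e-05). Mup6 belongs to a family of near-identical copies and is uncertain. At the lower end of the whole comparison stood genes of the visceral endoderm list and others outside it, such as Dab2, Apoc2 and Lama1. Dab2, an endocytic adaptor, was at 0.916 to 1.30 against 275 to 282, and Cubn and Amn, which form the receptor cubam, were below 0.2 in culture and above 69 at E6.5. Apoc2 was listed at 0 in all 3 cultured libraries. All 22 tested markers of the visceral endoderm list were lower, 13 of them through the E6.5 libraries alone.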

How the data were processed

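Bulk RNA-seq was made from 3 ESC-derived 3D EpiSC and 3 E6.5 epiblast samples. According to the study, adapters were removed with cutadapt 2.4, STAR mapped the reads to mm10, and the authors deposited TPM per gene computed by StringTie on GENCODE annotation. TPM sum to 1000000 in each library and keep no record of depth, so the precision rests on 3 libraries a group. Lines sharing an identifier (12 identifiers) were summed, and empty cells (56 lines) were read as 0. TPM were rescaled by median-of-ratios factors (0.807 to 1.29). Log2(rescaled TPM + 1) was fitted with limma 3.58.1 in R 4.3.3 on the 6 libraries, with group as the only term and without trend, in place of the study's DESeq2 on raw counts. Same-kit differences came from a limma fit of all 27 libraries in 9 groups. Adjustment was over all 10572 genes. On simulated data the fit recovered 198 of 200 genes given a change of 2 log2 units and called 0 of 10372 others. Same-numbered replicates did not deviate together (correlations -0.12 to -0.01).

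The comparison and the gene lists were chosen with earlier results of these data known. Named genes were the 12 largest called differences in each direction among non-overlapping genes above 5 rescaled TPM, the 10 largest not parted by kit, up to 6 called members of each list and a fixed set of lineage genes, and others are marked where named. Alternatives were another pseudocount, no filter, no rescaling, quantile normalization, a fit of all 27 libraries, a replicate block, a trend, averaging of ESC-derived 3D replicates 1 and 2, leaving out each library and, chosen after seeing the data, centring within 20 bins of exon length. Single-cell and bisulfite samples were not used here. Some values are not reported here.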

Additional observations from a re-analysis of the deposited data

Results flagged for a closer look

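Signals in genes outside the tested set (on the X chromosome or not protein-coding) stood apart between the groups and were not tested. H19, the imprinted noncoding RNA next to Igf2, had a mean of 1122 rescaled TPM at E6.5 against 1.31, 1.48 and 4.37 in the ESC-derived 3D libraries, and was at 12.8 in 2D EpiSCs. Xist, the RNA of X inactivation, had a mean of 59.0 at E6.5 and was below 0.01 in every ESC-derived 3D library. Rhox5, an X-linked homeobox gene, had a mean of 229 at E6.5 against 0.951 to 1.04, and stood at 446 in EpiLCs. Hprt, the purine salvage enzyme, had a mean of 91.5 at E6.5 and was at 0.425 to 0.796 in the ESC-derived 3D libraries, at 0.497 in EpiLCs and 0.679 in 2D EpiSCs, whereas embryo-derived 3D EpiSCs were at 163.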

How the results depend on the processing

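Without rescaling of TPM 2441 genes were called higher and 566 lower, with the median log2 difference at 0.50 and 18.8% of calls lower in place of 56.7%, so directions of broad lists hold only relative to that shift. The other alternatives gave 720 to 1040 genes higher and 854 to 1279 lower. A replicate block, which the correlation of same-numbered libraries did not call for, gave 858 and 1118. Leaving out 1 library gave 720 to 877 higher and 854 to 1166 lower. Without any 1 of the E6.5 libraries fewer genes passed the filter, so that lower calls fell to 7 of the streak list, 6 of the BMP list, 8 of the visceral endoderm list, 1 of the naive list and 2 of the germline list. Alternatives gave 3168 values over 224 named genes. Of these 3062 kept their side of the threshold, 101 fell below it and 5 rose past it, with 46 genes losing a call somewhere. No called difference changed direction. Uncalled genes did so, with ranges of -0.16 to 0.47 for Otx2, -0.12 to 0.59 for Sox2 and -0.46 to 0.27 for Pou3f1. Without depth, low levels carry no counting interval, and calls were lost under several alternatives for Ifitm1, Runx1, Dsg2 and Rbm25, whose differences lay near the threshold, and for Dkk1, whose cultured libraries were spread.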

Other observations

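Lysosomal genes included several lower cathepsins. Ctsl was at 74.9, 72.1 and 96.3 rescaled TPM in ESC-derived 3D EpiSCs against 379, 378 and 415 at E6.5 (log2 difference -2.26 ± 0.14), and Ctsh at 0.345 to 0.925 against 94.0 to 118. Of 27 tested members of that list 7 were lower and 3 higher, and Ctsl, Ctsh, Ctsa and Ctsb were parted by kit. In iron handling, the transferrin receptor Tfrc was higher at 147, 146 and 114 against 51.6, 49.0 and 53.4, and transferrin itself (Trf), a visceral endoderm marker, was at 0 to 0.0201 against 35.8 to 44.7. The zinc importer Slc39a4 was lower at 1.35 to 3.30 against 16.9 to 20.5.

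Of the factors of primordial germ cells, Prdm1 and Tfap2c were lower, Prdm1 at 0.284, 0.298 and 1.91 against 4.88, 8.28 and 5.64, and Ifitm2 and Ifitm3 were higher, Ifitm3 at 30.9, 36.2 and 23.02 against 10.2, 11.8 and 11.01. Over that list 2 of 9 were higher and 4 lower. RNA processing genes with long nuclear transcripts gave 6 lower of 26, such as Srrm2 at 167, 167 and 152 against 486, 536 and 415, but 2 after centring within exon-length bins and 1 without rescaling.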
